A study of Mus musculus with 5 samples.

Results

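Among the neutrophils of mouse bone marrow (BM), 1951 cells were low in specific granule transcripts, carried Mmp8 and almost lacked Il1b and Cxcl2. They were taken from 21520 kept cells of 3 whole BM libraries, a kept cell having at least 200 detected genes and less than 20% of its unique molecular identifiers (UMIs, each standing for 1 captured transcript) from mitochondrial genes. The members were chosen by these measured values: at least 8% of UMIs from S100a8 and S100a9 together, less than 2% from Ngp and Camp, at least 1 UMI of Mmp8 and at most 1 UMI of Il1b and Cxcl2 together. Naive BM held 526 of them among 7104 kept cells, day 2 cyclophosphamide (D2 CTX) BM held 592 among 6126, and day 7 (D7 CTX) BM held 833 among 8290. The whole series kept 25975 cells, the others being CD11b+Ly6Chi sorted monocytes.

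The study followed marrow after CTX, an alkylating drug that kills dividing cells, to see how myeloid cells are rebuilt. The mice were BALB/c of 4 to 8 weeks. Treated mice received CTX at 150 mg/kg by the intraperitoneal route, marrow was taken on day 2 or day 7, and naive mice received no treatment. For each condition, live CD45+ marrow cells of 3 mice were mixed in equal numbers before 10x Genomics 3′ sequencing, so each condition is 1 library and the spread between mice cannot be seen. The libraries held 47086837 UMIs in 7649 barcodes for naive BM, 34764874 in 6608 for day 2 and 68459527 in 8605 for day 7. No barcode of a member occurred as a member in another library. The median member had 2639.5 UMIs in naive BM, 3182 on day 2 and 4608 on day 7.

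Neutrophils are made in the marrow from proliferating precursors that load their granules in order. Azurophil granules, with elastase and myeloperoxidase, come first, specific granules with lactoferrin and the cathelicidin Camp follow, and gelatinase granules with Mmp9 come last. Mmp8, a collagenase, is stored in the later granules. As they mature, the cells carry more of the receptors Cxcr2 and Csf3r, by which they leave the marrow and respond to granulocyte colony-stimulating factor. Mature neutrophils can make the inflammatory cytokine Il1b and the chemokine Cxcl2.

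The working name of these cells was immature Mmp8-positive neutrophils, with Mmp8, Mmp9, Ly6g and Itgb2l as its markers. Levels are counts per 1000000 UMIs (CPM), from the pooled UMIs of all cells of a class within a library. Mmp9 stood at 1897 CPM in naive members, at 2425 on day 2 and at 1506 on day 7, with at least 1 UMI in 98.2% to 98.5% of the cells of each library. Ly6g, a surface protein of mouse neutrophils, was measured at 1351, 1577 and 2028 CPM in these libraries. Itgb2l, an integrin beta chain, was at 49.2, 64.9 and 36.6 CPM and was found in 13.7%, 17.7% and 16.4% of the cells. B lineage cells, which should lack these transcripts and so give the level of free RNA in the droplets, had Mmp9 at 9.23, 46.6 and 9.71 CPM and Ly6g at 7.10, 23.9 and 23.4 CPM. Neutrophil identity was therefore plain in every library, while the word immature was not settled by the markers. Granule-rich cells, the S100a8 and S100a9 high cells with at least 2% Ngp and Camp, had as much Ly6g (1438, 1742 and 1893 CPM) and more Itgb2l (60.0, 84.6 and 49.1 CPM). They had less Mmp9 (690, 1413 and 544 CPM). Mmp8, a gene of the rule, was also lower there, at 940, 1939 and 709 CPM against 2617, 3605 and 2194 CPM in members. The cells are called Mmp8+ Il1b-low neutrophils here, after the rule.

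Set beside granule-rich cells, the Mmp8+ Il1b-low neutrophils held fewer transcripts of the specific granules and more of the receptors of late neutrophils. The classes were divided on these transcripts, so what follows is a description with no test. Ltf, the lactoferrin of specific granules, was at 636, 1234 and 925 CPM in members, in the order naive, day 2 and day 7, against 8520, 10392 and 8670 CPM in granule-rich cells. Cebpe, a transcription factor needed for specific granules, was at 61.0, 70.4 and 63.6 CPM against 461, 424 and 486 CPM. Lcn2, lipocalin 2, remained abundant, at 4531, 6158 and 4109 CPM in members against 11428, 12523 and 11638 CPM. Cxcr2 went the other way, at 773, 858 and 456 CPM in members and 104, 274 and 81.5 CPM in granule-rich cells. Retnlg, a resistin-like secreted protein of neutrophils, stood between 28275 and 42628 CPM in members, well above the granule-rich range of 4300 to 8369 CPM. In every library 244 of 3626 genes (6.73%) exceeded their level in granule-rich cells by 1 log2 unit or more, and 194 (5.35%) fell short of it by as much. Those furthest up included the chemokine Ccl6, with log2 ratios of 4.76, 3.15 and 4.78, the C-type lectin receptor Clec4d (4.43, 2.98 and 4.29) and the inflammasome sensor Nlrp3 (3.97, 2.78 and 3.56). Those furthest down included the acute phase protein Orm1 (-6.15, -5.72 and -6.07), the chitinase-like Chil3 (-5.27, -5.05 and -4.97) and the ficolin Fcnb (-4.82, -7.09 and -3.69).

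The nearest class was the Mmp8+ Il1b-high cells, which met the rule except that they had 2 or more UMIs of Il1b and Cxcl2. Of 1517 genes, only Ltf and the hemoglobin gene Hbb-bs were higher in members by 1 log2 unit or more in every library (2 genes, 0.132%). Another 5 genes (0.33%) were lower, namely the rule genes Il1b and Cxcl2 and the genes Pla2g7, St3gal6 and Gm5150. Ltf had log2 ratios of 1.54, 1.33 and 1.36, and the oxidase subunit Cybb was at 0.56, 0.56 and 0.59. Lcn2 (0.20, 0.41 and 0.32) and Cebpe (0.44, 0.67 and 0.58) lay on the same side, and Cxcr2 on the other (-0.42, -0.65 and -0.53). Pla2g7, a lipid-cleaving enzyme of plasma, was at -1.21, -1.33 and -1.34, and the sialyltransferase St3gal6 at -1.13, -1.19 and -1.16. Csf3r, the receptor for granulocyte colony-stimulating factor, stood at 415, 539 and 337 CPM in members and at 721, 980 and 626 CPM in Mmp8+ Il1b-high cells. In granule-rich cells it was at 97.0, 222 and 77.9 CPM, so that the members lay between the neighbours in every library.

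**Figure D1:**
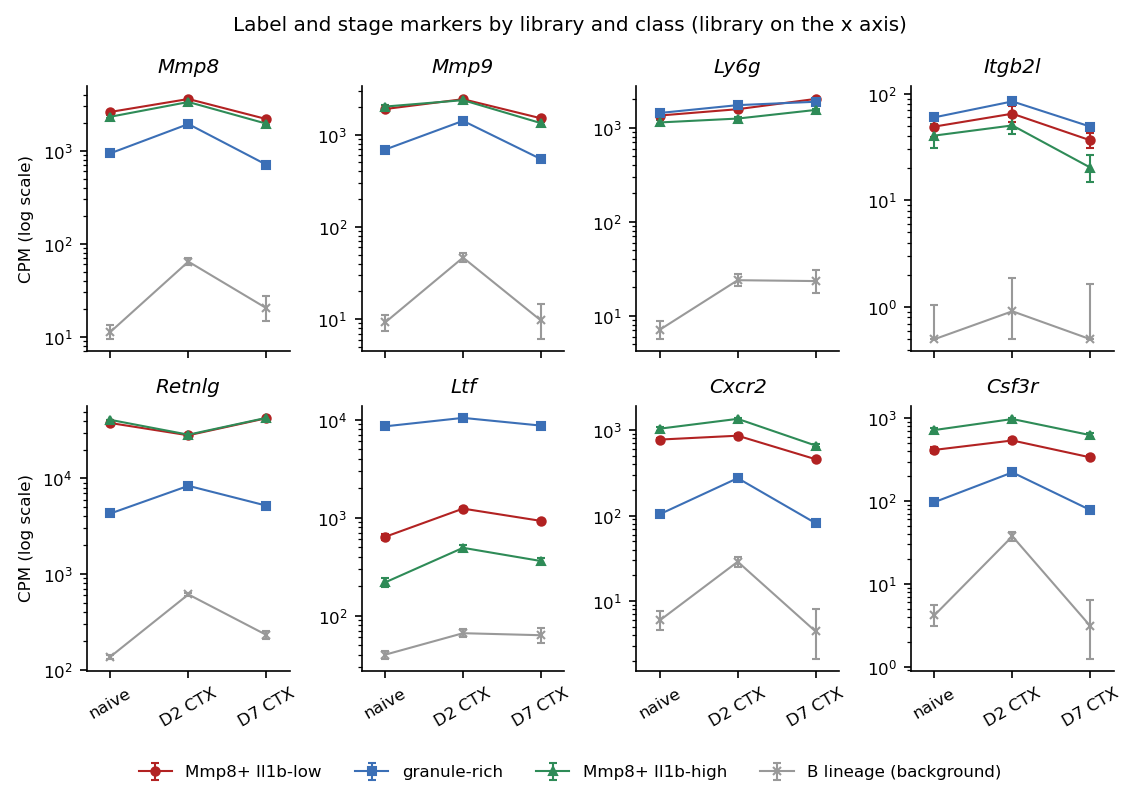
Level in CPM on a log scale of the 4 label markers and of Retnlg, Ltf, Cxcr2 and Csf3r in each library, for Mmp8+ Il1b-low neutrophils (circles), granule-rich cells (squares), Mmp8+ Il1b-high cells (triangles) and B lineage cells (crosses, the background). Bars are exact 95% Poisson intervals, and values under 0.5 CPM are drawn at 0.5. Ly6g and Itgb2l hardly separate the members from granule-rich cells, whereas Mmp9, Ltf, Retnlg, Cxcr2 and Csf3r do, as does the rule gene Mmp8.

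The share of Mmp8+ Il1b-low neutrophils depended on what they were counted against. They made up 7.40% (exact Clopper-Pearson 95% interval 6.81 to 8.04) of kept cells in naive BM, 9.66% (8.94 to 10.4) on day 2 and 10.0% (9.41 to 10.7) on day 7. Intervals here and below cover counting error only. Over naive the log2 ratios were 0.38 (0.21 to 0.56) and 0.44 (0.28 to 0.60). B lineage cells, however, fell from 28.6% of kept cells in naive BM to 2.61% at D7 CTX. With these left out of the denominator the shares were 10.4%, 13.4% and 10.3%, and the D7 CTX log2 ratio was -0.01 (-0.17 to 0.15). Among S100a8 and S100a9 high cells alone, they were 16.2% (15.0 to 17.6), 21.0% (19.6 to 22.6) and 12.4% (11.6 to 13.2), a log2 ratio of 0.37 at D2 CTX and -0.39 at D7 CTX. The D2 CTX share was larger than the naive one for each of these denominators, and the D7 CTX share only with all kept cells. The limit on Ngp and Camp also bore on it: at 1% in place of 2%, the rule took 5.76% of kept cells in naive BM and 6.27% on day 2, a log2 ratio of 0.12 (-0.08 to 0.33). In the D7 CTX library granule-rich cells took 61.5% of kept cells, against 28.4% in the naive and 18.7% in the D2 CTX library.

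Because the limits on Mmp8, Il1b and Cxcl2 are whole UMIs, depth moves cells in and out of the class. After each cell was thinned to 1000 UMIs, leaving out 285, 599 and 73 shallower cells of the naive, D2 CTX and D7 CTX libraries, the rule took 9.37%, 13.7% and 12.1% of the cells. The log2 ratios over naive were then 0.55 and 0.37. The thinned class held 639, 758 and 995 cells, of which 435, 449 and 684 were members at full depth. The share of Mmp8+ Il1b-high cells went from 7.83%, 14.6% and 6.92% to 3.74%, 7.96% and 2.20% on thinning. The part of such cells in the thinned ratios was not tested. At the edges of the rule, 45, 28 and 25 members of the libraries in that order had exactly 1 UMI of Mmp8, and 52, 25 and 135 cells met every other condition with none. Retnlg stood at 30104, 22616 and 30422 CPM in the first and at 4997, 5789 and 1169 CPM in the second. Members with 1.5% to 2% Ngp and Camp had Ltf at 2276, 2628 and 2705 CPM, and cells just outside, with 2% to 2.5%, at 2551, 3872 and 3390 CPM. The Mmp8 limit thus met a break in other neutrophil genes, whereas the Ngp and Camp limit ran through a slope.

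**Figure D2:**
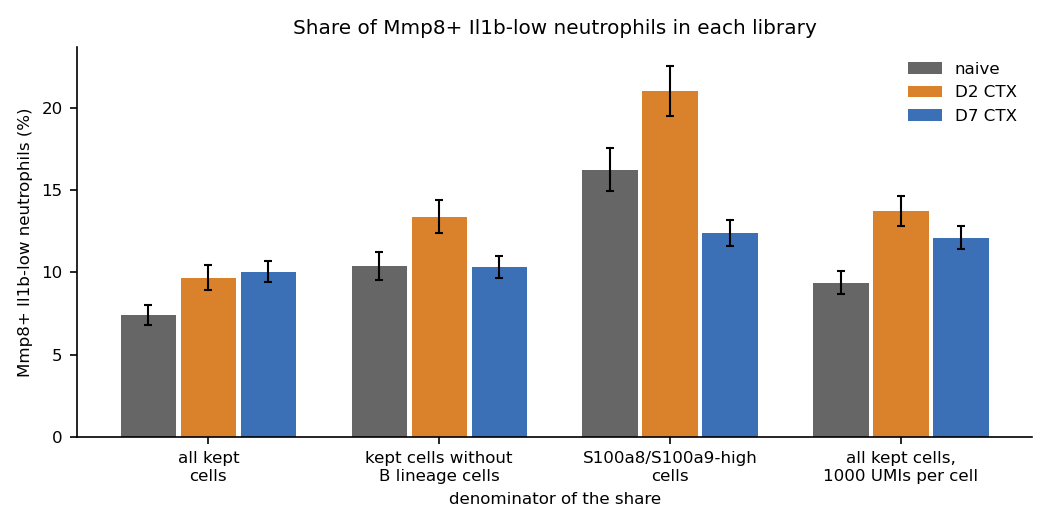
Share of Mmp8+ Il1b-low neutrophils in percent, on the vertical axis, for the 3 libraries and each denominator. Bars are shares, with exact Clopper-Pearson 95% intervals. D7 CTX is above naive when all kept cells are the denominator and below it among S100a8 and S100a9 high cells.

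Some members carried transcripts typical of other cells or of dividing cells, or were far deeper than the rest. By 5 signs (hemoglobin or immunoglobulin at 1% of UMIs or more, 3 or more UMIs of Cd79a and Cd79b, 2 or more of Mki67 and Top2a, or a depth over 3 times the members' median), 50 naive, 54 day 2 and 30 day 7 members were mixed, and they held 24.8%, 20.7% and 9.81% of the members' UMIs. The 6 erythroid markers summed to 14227, 4293 and 138 CPM over all members and to 408, 173 and 22.3 CPM without the mixed ones, and Hbb-bs was the most abundant in each library. The 7 B lineage markers, led by Igkc in naive and D2 CTX and by Ighm in D7 CTX members, summed to 5847, 6472 and 142 CPM, and to 503, 339 and 49.0 CPM without the mixed cells. The Mki67 and Top2a sign marked 15 naive, 10 day 2 and 25 day 7 members. Whether these were dividing neutrophils or held transcripts of other cells was not tested. Results below are given for all members, and without the mixed ones where these moved them. Monocyte markers (8 genes) summed to 332, 334 and 364 CPM, and to 116, 134 and 172 CPM without the mixed cells, and macrophage markers (6 genes) were at 16.2, 116 and 15.5 CPM. Of the 6 T and NK markers, Cd3d made up 333 of 392 CPM in naive members, in which Cd3e had no UMI.

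On day 7, the change that stood out in the Mmp8+ Il1b-low neutrophils was in the stefin A genes, a family of cystatin-type inhibitors of cysteine proteases that lies in a cluster on chromosome 16 in the mouse. Of 2452 genes with at least 200 UMIs over both libraries and 20 CPM in 1 of them, 14 (0.571%) rose by 1 log2 unit (2-fold) or more from naive to D7 CTX members and 48 (1.96%) fell by as much. Ratios were taken after adding 1 CPM, and the median gene lay at -0.14. Relative to it, 18 genes were higher (0.734%) and 32 lower (1.31%), so the higher genes were 22.6% of the calls by totals and 36% relative to the median gene. Without mixed members, 13 of 2019 genes were higher (0.644%) and 50 lower (2.48%). Of the 7 stefin A genes listed, 6 passed the filter and 5 rose, with a median log2 ratio of 1.85.

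Stfa3 (chr16:36450537-36455392, minus strand, GENCODE M21 on GRCm38) was at 208 CPM in naive members, at 318 on day 2 and at 1965 on day 7. Its log2 ratio at D7 CTX was 3.23 (exact conditional interval 3.08 to 3.4). At 1000 UMIs per cell it was found in 7.47%, 14.7% and 37.7% of members, so more cells carried it on day 7. Stfa2 (chr16:36403992-36408457, minus strand) stood at 457, 461 and 3241 CPM, a D7 CTX ratio of 2.82, and was found in 12.7%, 16.6% and 43.7% of thinned cells. BC100530 (chr16:36359382-36367748, minus strand), the most abundant of the family, went from 2331 CPM in naive members and 1815 on day 2 to 9434 on day 7, with a ratio of 2.02. Stfa2l1 (chr16:36156811-36161953, plus strand) stood at 651, 713 and 1631 CPM, a ratio of 1.32. Its neighbour Gm5483 missed the limit, at 1743, 1669 and 2774 CPM and a ratio of 0.67. BC117090, at 24.9, 130 and 82.4 CPM, differed from the others in being highest on day 2.

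Summed over the family, stefin A transcripts were 5418, 5112 and 19141 CPM in the members of the 3 libraries, naive first. Per cell thinned to 1000 UMIs the means were 6.19, 5.84 and 20.6 UMIs and the medians 2, 3 and 11, and 64.6%, 72.2% and 84.4% of cells had at least 1. In B lineage cells the means were 0.03, 0.18 and 0.05, so free RNA at that level is far below the members. The increase was shared with the neighbours. Granule-rich cells had means of 0.71, 1.93 and 4.74 UMIs, and Mmp8+ Il1b-high cells 7.83, 7.41 and 20.3. The D7 CTX ratio of Stfa3 was 3.66 in granule-rich and 2.82 in Mmp8+ Il1b-high cells, and that of Stfa2 was 4.22 and 2.55. Whether these ratios differ from the members' was not tested.

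The upstream sequences of Stfa2, Stfa3 and Stfa2l1, which rose together, were compared, and those of Stfa3 and Stfa2l1 are shown because they hold stretches that few other promoters hold. Each is the 250 bases before the RefSeq start on GRCm38.p6, 5′ to 3′ on the gene's strand, with capitals for runs of 12 or more bases present in all 3 genes.
Stfa3 (chr16:36455393-36455642, minus strand): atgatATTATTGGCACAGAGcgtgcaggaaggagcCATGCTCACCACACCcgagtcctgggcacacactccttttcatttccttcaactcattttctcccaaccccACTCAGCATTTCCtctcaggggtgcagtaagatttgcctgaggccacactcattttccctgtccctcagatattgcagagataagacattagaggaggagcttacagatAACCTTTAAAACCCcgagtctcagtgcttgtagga
Stfa2l1 (chr16:36156561-36156810, plus strand): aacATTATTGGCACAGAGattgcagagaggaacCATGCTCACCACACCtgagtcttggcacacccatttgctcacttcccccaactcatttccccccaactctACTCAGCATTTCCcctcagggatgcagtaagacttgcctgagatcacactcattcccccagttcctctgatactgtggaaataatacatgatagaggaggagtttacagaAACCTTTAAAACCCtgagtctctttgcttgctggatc
Capitals cover 57 bases in 4 blocks. Identity was 89.4% between Stfa2 and Stfa2l1, 80.2% between Stfa2 and Stfa3 and 80.3% between Stfa3 and Stfa2l1. Stfa1 was about as alike, at 81.0% to Stfa2, 83.5% to Stfa3 and 80.8% to Stfa2l1. It stood at only 1.87, 5.53 and 13.1 CPM in members and did not pass the filter, so such likeness was not particular to the genes that rose. Among the 32851 RefSeq promoters of the same table, the blocks AACCTTTAAAACCC and CATGCTCACCACACC were each found in these 3 alone. ATTATTGGCACAGAG was found in 5 and ACTCAGCATTTCC in 9, all of them cystatin or stefin entries or the predicted gene Gm7260. TTTAAA, within the block AACCTTTAAAACCC, began 29, 31 and 33 bases before the start of Stfa2, Stfa3 and Stfa2l1, and was present on either strand in 12.1% of all promoters. GAGGAA, the core bound by PU.1, was in all 3 and in 23.3% of all promoters. The letters TTGCNNAA, of C/EBP half-sites, were on neither strand of these windows, and 9.56% of all promoters hold them. Such matches describe letters only. For Stfa2 the window (chr16:36408364-36408613, minus strand) is not printed, since the GENCODE model of the gene begins inside it, at 36408457, and holds its TTTAAA. Of the 7 listed genes, 4 had a RefSeq promoter entry under the symbol used here.

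Copies this alike can share reads. Over the last 400 bases of the transcripts, where 3′ reads fall, 0% of the 90-base windows of Stfa3 occurred in another gene, 2.57% of those of Stfa2 and of Stfa2l1, 16.0% of those of BC100530 and 16.4% of those of BC117090. The division between BC100530 and BC117090 is thus the less certain, while the level of Stfa3 does not rest on shared windows.

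Beyond the stefins, Asprv1, an aspartic protease, went from 180 CPM in naive members and 230 on day 2 to 984 on day 7, a log2 ratio of 2.45, and from 15.6% and 16.4% to 47.8% of thinned cells. Ceacam10, a carcinoembryonic antigen family adhesion molecule, stood at 118, 159 and 313 CPM, a ratio of 1.41. In B lineage cells Asprv1 was at 6.79 CPM or less in each library and Ceacam10 at 2.61 CPM or less. Others of the 12 highest were lowly expressed, none above 53 CPM in D7 CTX members, among them Mt1, a metallothionein (1.45), Ndfip1, a ubiquitin ligase adaptor (1.19), the lysosomal protease Ctsl (1.16) and the autophagy protein Map1lc3a (1.07). Mt1 stood at 0.04 after thinning, and Ctsl at 0.95 without mixed members.

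Of the genes lower on day 7, Thbs1 was the furthest down outside the hemoglobin and immunoglobulin genes and Jchain. Thbs1, thrombospondin 1, was at 166, 468 and 4.54 CPM in naive, day 2 and day 7 members, with only 19 UMIs left on day 7, and its log2 ratio was -4.91 (-5.95 to -4.52). Ptgs2, the inducible cyclooxygenase, was at 114, 64.4 and 21.0 CPM, a D7 CTX ratio of -2.38. The early response factor Egr1 was at 318, 204 and 71.0 CPM (-2.15) and Il1rn, the interleukin 1 receptor antagonist, at 105, 99.6 and 32.5 CPM (-1.66). The cytokine Osm (355, 328 and 141 CPM, -1.33), the formyl peptide receptor Fpr2 (483, 685 and 224 CPM, -1.10), the receptor Tlr2 (83.4, 128 and 40.1 CPM, -1.04) and Nlrp3 (-1.04) were also past 1 log2 unit. Relative to the median gene Fpr2 stood at -0.96 and Tlr2 and Nlrp3 both at -0.90, within it. Il1b and Cxcl2 were limited by the rule, so the value for Cxcl2 (-1.16) is a description. In Mmp8+ Il1b-high cells Thbs1 had 290 UMIs in the naive and 1 in the D7 CTX library. The ratios there were -1.61 for Ptgs2, -1.39 for Egr1 and -1.50 for Il1rn, so the direction was the same. That class too was cut in whole UMIs, at 2 or more of Il1b and Cxcl2. Its median depth was 2445 UMIs in the naive and 3895 in the D7 CTX library, so it was not free of the limit. The part of depth in these ratios was not tested. In B lineage cells Egr1 stood at 31.5 CPM in the naive and 47.7 in the D7 CTX library, the opposite direction.

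Most of the others among the 12 lowest had their naive UMIs largely in a few cells. The B lineage genes Vpreb3 (-3.34) and Ebf1 (-3.14), the MHC class II chain Cd74 (-1.57), the proliferation marker Mki67 (-1.57), the linker histone Hist1h1b (-1.60) and the peroxiredoxin Prdx2 (-2.13), which is abundant in red cells, had 59.3% to 74.2% of their naive UMIs in 5 cells. Without mixed members Cd74 stood at 0.03, Mki67 at -0.69, Hist1h1b at -0.57, Prdx2 at -0.63, Ebf1 at -0.58 and Vpreb3 at -1.96. Mixed members were chosen by hemoglobin, B lineage and dividing cell transcripts, Mki67 among them. These shifts therefore follow in part from that choice, and the source of the transcripts was not tested. Gm42418, which overlaps a ribosomal RNA repeat, was at 2032 CPM in naive and 720 on day 7 (-1.50), while B lineage cells had 4002 and 2196 CPM of it. The twelfth, Nabp1, a single-strand DNA binding protein, was at -1.46, and at -0.92 after thinning.

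**Figure D3:**
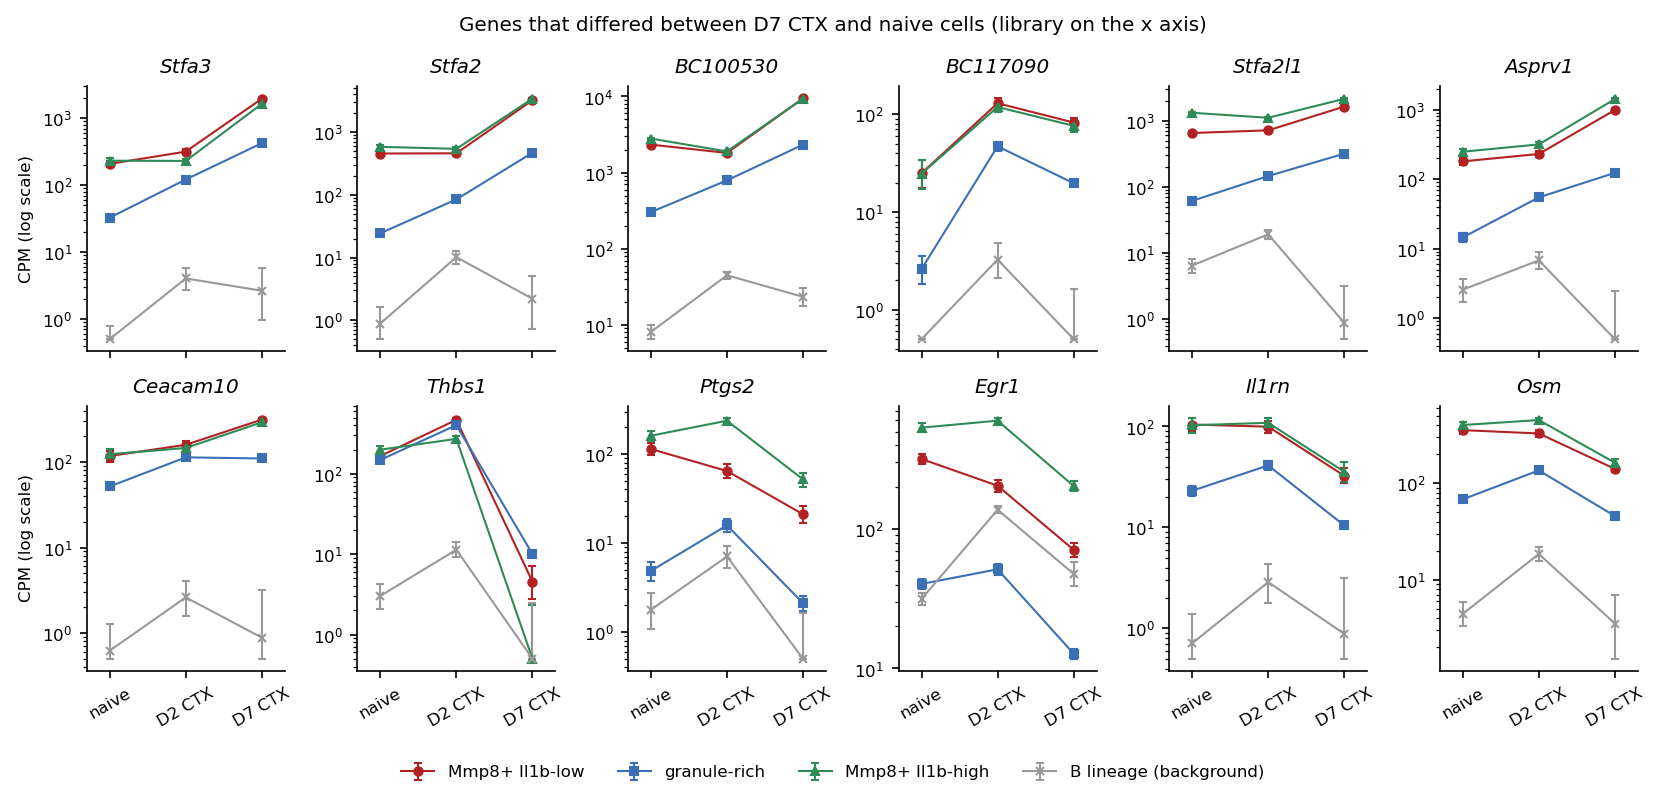
Level in CPM on a log scale of 7 genes higher and 5 genes lower in D7 CTX than in naive Mmp8+ Il1b-low neutrophils, by library and class (circles, squares, triangles and crosses as named in the key). Bars are exact 95% Poisson intervals, and values under 0.5 CPM are drawn at 0.5. Stfa3 in the members is at 208, 318 and 1965 CPM and Thbs1 at 166, 468 and 4.54 CPM, and in granule-rich and Mmp8+ Il1b-high cells too Stfa3 is highest and Thbs1 lowest on day 7.

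The pathway lists placed these changes among much that stayed within 1 log2 unit on day 7. Counts of lower genes stand beside 1.96% of all genes tested, and 2.48% without mixed members, and counts of higher genes beside 0.571% and 0.644%. Genes that the rule used (Ngp and Camp, Mmp8, Il1b and Cxcl2) were left out of the specific granule, gelatinase granule and mature neutrophil lists. None of the other 7 specific granule genes tested, 3 gelatinase granule genes, 6 oxidase genes or 6 transcription factors of granulopoiesis passed 1 log2 unit in either direction, with medians of 0.21, -0.39, 0.18 and 0.03 beside -0.14 for all genes. Without mixed members 1 of the specific granule genes rose, Ltf, from 372 to 857 CPM (1.20), against 0.54 over all members. Of 10 mature neutrophil genes, Fpr2 fell, and the median was -0.34. Of 8 sensing receptors, Tlr2 fell, and the median was -0.05. Among 9 adhesion and marrow exit genes none was called, with Cxcr2 at -0.76, but 1 of 8 fell without mixed members. Of 12 immediate early genes, Egr1 and Ier3 fell (Ier3 at -0.93 relative to the median gene), the median was -0.46, and the 14 genes listed summed to 6043, 4702 and 3982 CPM, and without mixed members 3 of 12 fell, Fos being the third (-1.25). The 11 glycolysis genes had none past the limit and a median of 0.37, Gapdh standing at 1327, 1067 and 1720 CPM. The 5 azurophil granule genes had none past it either and a median of 0.75. Without mixed members 1 of them rose, Ms4a3 (1.09), and in B lineage cells Prtn3 and Elane had ratios of 1.19 and 1.22. Of 10 cell cycle genes 3 fell, and without mixed members 2 were tested and none was called. That last count cannot test the list, because mixed members were chosen in part by Mki67 and Top2a.

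On day 2 after CTX, 2 of the 6 interferon stimulated genes tested were higher in the Mmp8+ Il1b-low neutrophils than in naive ones by totals. Of these, 1 was also higher relative to the median gene. The 3 azurophil granule genes tested were lower, and Elane and Prtn3 among them lay largely in a few naive cells. Of 1960 genes tested, 49 (2.5%) rose by 1 log2 unit or more from naive to D2 CTX members and 29 (1.48%) fell by as much. The median gene lay at 0.27, and relative to it 17 genes were higher (0.867%) and 61 lower (3.11%), so that higher genes were 62.8% of the calls by totals and 21.8% relative to the median gene. The split between higher and lower genes therefore rests on the scaling, and without mixed members it was 46 (3.03%) to 8 (0.527%) of 1519 genes. This comparison and that of day 7 share the naive library, so their values are set side by side and not correlated.

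Ifitm1, an interferon-induced membrane protein, was at 113 CPM in naive members, at 390 on day 2 and at 178 on day 7, a D2 CTX log2 ratio of 1.78 (1.55 to 2.03). Slfn4, a schlafen family gene induced by interferon, was at 173, 443 and 190 CPM (1.35), and Oas3, an oligoadenylate synthetase, at 66.6, 169 and 51.4 CPM (1.33). Ddx58, the RNA sensor RIG-I, was at 31.7 CPM in naive members and 94.6 on day 2 (1.55), or 0.85 with B lineage levels subtracted. Each of them was highest on day 2 and close to naive, or nearer to it, on day 7. Rsad2, viperin, stood at 49.2, 106 and 22.0 CPM (1.09, and 0.81 relative to the median gene) and Cmpk2, its neighbour in the genome, at 44.8, 111 and 35.1 CPM (1.29). Of the 19 interferon stimulated genes listed, 6 were tested and 2 rose, Ifitm1 and Rsad2, with a median of 0.75 beside 0.27 for all genes. The list summed to 1605, 2423 and 1888 CPM. Per cell thinned to 1000 UMIs its means were 1.56, 2.53 and 1.90 UMIs, and 69.1%, 82.8% and 75.6% of cells had at least 1.

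The interferon list was also higher on day 2 in cells other than these. Its thinned means were 1.73, 3.15 and 2.04 UMIs in Mmp8+ Il1b-high cells, 1.03, 1.69 and 1.05 in granule-rich cells and 0.29, 0.61 and 0.36 in B lineage cells. Ddx58 in B lineage cells was at 29.7 CPM in the naive and 90.2 in the D2 CTX library, as high as in the members. Slfn4, by contrast, was at 2.4 and 18.9 CPM there, far under its level in the members. In the members, plasmacytoid markers (4 genes) summed to 51.0, 140 and 94.4 CPM, and to 32.3, 158 and 49.5 CPM without the mixed ones. Macrophage markers summed to 12.4, 119 and 14.3 CPM without the mixed ones, so both were also highest on day 2. The part of free RNA or of other cells in the interferon values was not tested.

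Among the other genes of the 12 highest, Ly6c1, a Ly6 family surface protein, was at 88.3 and 286 CPM in naive and D2 CTX members (1.68), while B lineage cells had 18.8 and 140 CPM of it. Hif1a, the oxygen-regulated factor, stood at 44.8, 135 and 34.6 CPM in the 3 libraries (1.57), and B lineage cells had it at 56.6 CPM in the naive and 91.8 in the D2 CTX library. Wfdc17, a whey acidic protein family gene, was at 64.7 and 189 CPM (1.53), and Dennd4a, an exchange factor for Rab proteins, at 56.6 and 150 CPM (1.39). Thbs1 was at 166 and 468 CPM (1.49, and 0.77 after thinning), the reverse of its direction on day 7. Slpi, an inhibitor of leukocyte proteases, went from 310 to 929 CPM (1.58), but 56.1% of its D2 CTX UMIs came from 5 cells and its ratio was 0.48 without mixed members. Gm10076, the highest at 24.9 and 161 CPM (2.65), was also higher in B lineage cells (83.6 and 717 CPM). Outside the 12 highest, the membrane-anchored metalloprotease Mmp25 (38.0 and 93.1 CPM, 1.27), the decoy receptor Il1r2 (55.4 and 116 CPM, 1.05) and the histidine decarboxylase Hdc (300 and 699 CPM, 1.22) also rose by totals. Relative to the median gene Il1r2 stood at 0.78, Hdc at 0.94 and Mmp25 just under 1 log2 unit, and Il1r2 was at 0.91 without mixed members, so these calls rest on the scaling.

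Of the genes lower on day 2, Elane, of the azurophil granules, was the furthest down outside the immunoglobulin genes. Elane, neutrophil elastase, was at 400 CPM in naive members, at 10.1 on day 2 and at 605 on day 7, a D2 CTX log2 ratio of -5.18 (-6.03 to -4.67). Prtn3, proteinase 3, went from 373 to 25.7 CPM (-3.81) and Mpo, myeloperoxidase, from 195 to 30.2 CPM (-2.65), so that all 3 azurophil genes tested fell. In naive members 71.5% of the UMIs of Elane lay in 5 cells, and 64.2% of those of Prtn3, so the values of Elane and Prtn3 rest largely on a few naive cells. Without mixed members the ratios were -4.49, -3.54 and -2.47. In B lineage cells Elane went the other way, from 128 to 357 CPM. In Mmp8+ Il1b-high cells the ratio of Elane was -3.4, and in granule-rich cells -1.33.

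The other genes of the 12 lowest were mostly those of dividing cells. Hist1h1b (-4.01), the histone variant H2afx (-2.32), the replication factor Pclaf (-1.86), the tubulins Tuba1b (-1.82) and Tubb5 (-1.26) and the microtubule regulator Stmn1 (-1.66) had most of their naive UMIs in 5 cells, up to 72.3% for Hist1h1b, and so had Prdx2 (-2.20), with 59.3%. Without mixed members all of these but Hist1h1b (-1.80) were within 1 log2 unit. Of 8 cell cycle genes tested 5 fell, and without mixed members 2 were tested and none was called. Mki67 and Top2a were among the signs of mixed members. Leaving these members out removes dividing cells by choice, so it cannot test such genes. Hist1h1c, another linker histone, fell from 190 to 76.0 CPM (-1.31) and stood at -1.37 without mixed cells. Rpl36al, a ribosomal protein gene, was at -1.27, and in B lineage cells at -1.33. The 79 ribosomal protein genes tested had a median of -0.52, 4 of them fell, and their sum went from 52509 to 38997 CPM. Without mixed members none of 74 was called, the median was -0.28 and the sum went from 26569 to 23130 CPM. None of the 7 specific granule genes other than Ngp and Camp, 6 oxidase genes, 8 sensing receptors or 10 glycolysis genes tested passed the limit, with medians of 0.53, 0.10, 0.40 and 0.37. Without mixed members Ltf rose, from 372 to 1075 CPM (1.53), and Ccl6, a chemokine on the mature neutrophil list, fell (-1.05). The immediate early genes Junb and Ier2 (both at -1.02) also fell then, and 1 heat shock gene rose, Hspa8 (1.22). Of 14 listed targets of p53, which responds to DNA damage, only 2 were abundant enough to test and none was called (median 0.53), and none of 3 survival and death genes was called (median 0.25). Hemoglobin and immunoglobulin genes were listed apart, since 99.5% of the naive UMIs of Igha and 100% of the D2 CTX UMIs of Ighg1 lay in 5 cells.

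**Figure D4:**
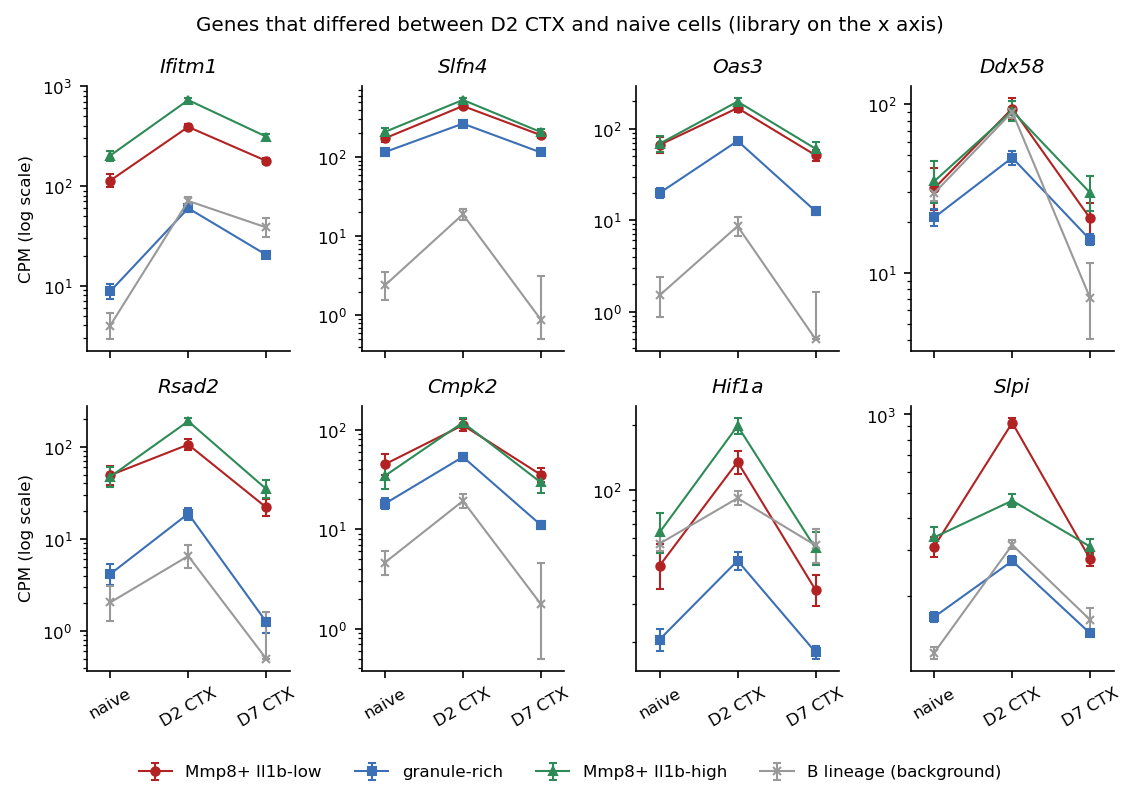
Level in CPM on a log scale of 8 genes higher in D2 CTX than in naive Mmp8+ Il1b-low neutrophils, by library and class (circles, squares, triangles and crosses as named in the key). Bars are exact 95% Poisson intervals, and values under 0.5 CPM are drawn at 0.5. Ifitm1 in the members is at 113, 390 and 178 CPM, Slfn4 and Oas3 lie far above the B lineage cells, and Ddx58 and Hif1a do not.

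Within the class, cells were graded by what was left of Ngp and Camp. In naive BM 56.8% of members had under 0.5% of their UMIs from these genes, 20.9% had 0.5% to 1% and 22.2% had 1% to 2%. The shares were 44.4%, 20.4% and 35.1% on day 2, and 50.2%, 20.2% and 29.7% on day 7. Other genes followed this grading in naive members: Ltf stood at 30.6, 241 and 1763 CPM from the lowest to the highest bin, and Ccl6 at 2449, 1167 and 434 CPM, Cxcr2 at 1009, 705 and 478 CPM and Csf3r at 544, 426 and 223 CPM. The cells with least Ngp and Camp thus carried most of the late receptors.

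Of the day 7 ratios given here, that of Stfa2l1 was within 1 log2 unit in the lowest bin, and the others were past it in every bin. The log2 ratio of Stfa3 was 3.28, 2.66 and 3.75 from the lowest to the highest bin, and that of Asprv1 2.39, 2.14 and 3.03. For Stfa2 the ratios were 2.26, 3.11 and 4.81 and for Stfa2l1 0.82, 2.12 and 2.4, so these ratios were largest in the cells with most Ngp and Camp. The levels were not. Naive members had Stfa2 at 709, 461 and 92.2 CPM, and D7 CTX members at 3390, 3986 and 2605 CPM. Stfa2l1 stood at 1046, 414 and 236 CPM in naive and at 1852, 1798 and 1250 CPM in D7 CTX members. The day 7 levels of both were thus lowest in the highest bin. Thbs1 had ratios of -4.70, -4.47 and -5.58, Ptgs2 of -2.27, -2.80 and -2.16 and Egr1 of -2.12, -2.53 and -1.61. On day 2, Slfn4 stood at 1.45, 1.17 and 1.38 and Ddx58 at 1.33, 1.57 and 2.02, whereas Ifitm1 was at 1.83, 1.27 and 4.55 and Slpi at 0.51, 0.55 and 2.38. The last value of Ifitm1 rests on 5 naive UMIs, and most D2 CTX UMIs of Slpi lay in 5 cells. The day 2 ratios of Thbs1 were 1.33, 0.89 and 1.59. The day 7 ratios of Stfa3, Asprv1, Thbs1, Ptgs2 and Egr1 and the day 2 ratios of Slfn4 and Ddx58 were past 1 log2 unit in each bin. Some of these rest on few UMIs. From the lowest to the highest bin, D7 CTX members had 6, 8 and 5 UMIs of Thbs1 and 72, 9 and 7 of Ptgs2. Naive members had 29, 11 and 11 UMIs of Ddx58. The make-up of the class had moved, and its part in the changes over all members was not tested.

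**Figure D5:**
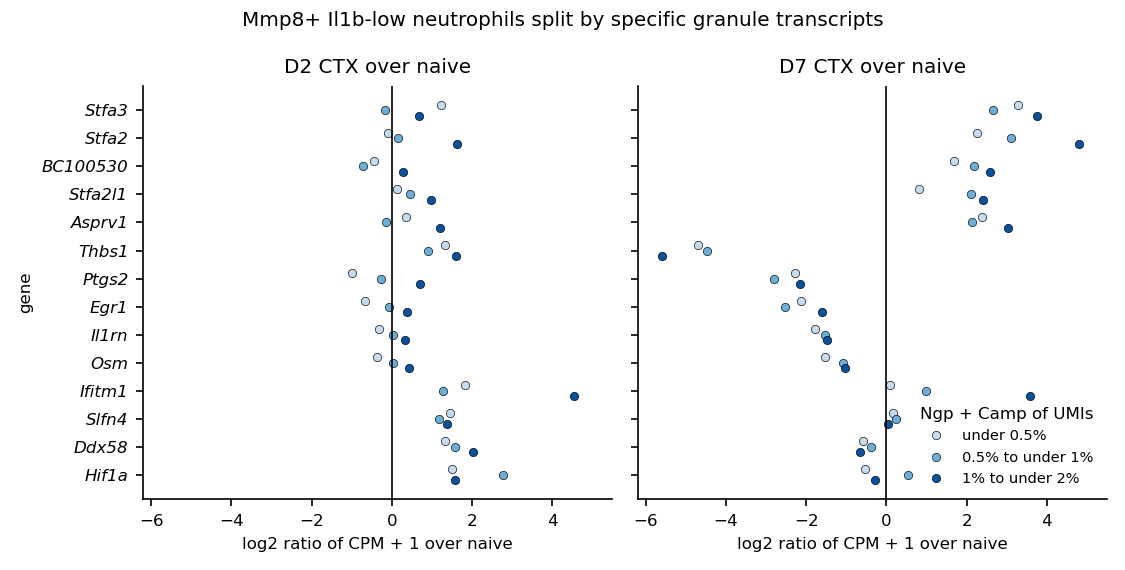
Log2 ratio of CPM plus 1 over naive, on the horizontal axis, of 14 genes in Mmp8+ Il1b-low neutrophils divided by the percent of UMIs from Ngp and Camp (shades), for D2 CTX on the left and D7 CTX on the right. Each point is 1 pair of libraries, with no error drawn. At D7 CTX, Stfa3, Stfa2 and Asprv1 are above 2 and Thbs1 is below -4 in every bin.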

How the data were processed

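The deposited files hold raw UMI counts per gene and cell barcode, which the authors made from 10x 3′ reads. The submitters' processing notes name Cell Ranger 3.1, Seurat 5.0 and the mm10 build. No cell annotation was used, and the classes were rebuilt from the counts. The cells and gene lists were chosen with earlier results of these data known.

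Counts of 3 whole BM libraries, each a pool of 3 mice, were summed over the cells of a class and scaled to counts per 1000000 (CPM). Genes with at least 200 UMIs over a pair of libraries and 20 CPM in 1 of them were compared by log2 ratios after adding 1 CPM, and called at 1 log2 unit. With 1 library per condition no p-value was possible. Exact Clopper-Pearson, Poisson and conditional intervals at 95% cover counting error only. Named genes were the 12 highest and 12 lowest of each comparison, with immunoglobulin, hemoglobin, Y-linked genes and Xist listed apart, rule genes, label markers, members of lists, and the 8 highest and 8 lowest over each neighbouring class. Genes named outside this rule (Cmpk2, Hdc, Osm and Nlrp3 in the comparisons with naive) were chosen after their values were seen, and some genes that the rule names are not reported here. B lineage cells had 3 or more UMIs of Cd79a and Cd79b and less than 8% S100a8 and S100a9. Doublets were kept. Scrublet removal (highest 0.8% per 1000 cells) was an alternative, and it marked 8.56%, 9.63% and 3.96% of naive, D2 CTX and D7 CTX members. Libraries shared 6, 16 and 13 cell barcodes by pair. The calling was tested on simulated Poisson counts per gene, with the true totals given. That test could not check the scaling or the effect of UMIs gathered in a few cells. Python 3.11.15, numpy 2.4.6, pandas 2.3.3, scipy 1.17.1, scanpy 1.11.5 and matplotlib 3.10.9 were used.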

Additional observations from a re-analysis of the deposited data

Results flagged for a closer look

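The 2 sorted monocyte libraries entered no comparison, and 7 of 2564 kept cells of the CTX library met the rule, 0.273% (Clopper-Pearson 0.110 to 0.562). The naive library had 0 of 1891, which allows a share of up to 0.159% by a limit of 3 counts and of up to 0.195% by an exact binomial interval. The share of Mmp8+ Il1b-low neutrophils among S100a8 and S100a9 high cells went up at D2 CTX and down at D7 CTX, and the log2 ratios over naive differed by -0.76. In the members Thbs1 was higher on day 2 and lower on day 7, a difference of -6.40 between the log2 ratios. Cd74 did the same, with a difference of -2.77, and its D7 CTX ratio was 0.03 without mixed members. With 1 library each, none of these differences was tested.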

How the results depend on the processing

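Each condition was 1 pooled library, so no value can be set against the spread between mice, and low genes are limited by depth. No paired analysis was possible because the libraries carry no replicate numbers. The log2 share over naive at D2 CTX was 0.72 after thinning to 2000 UMIs and 0.12 with an Ngp and Camp limit of 1%. At D7 CTX it was 0.64 after thinning to 2000 UMIs, 0.65 with no Il1b or Cxcl2 UMI allowed, and reversed to -0.39 among S100a8 and S100a9 high cells and to -0.0066 without B lineage cells. The 49 genes higher at D2 CTX became 17 by the median of gene ratios, 28 by the total without the 20 most abundant genes, 1335 with no filter, 91 by the mean of cells, 187 with B lineage levels subtracted and 18 after thinning. The 29 lower became 61 by the median of gene ratios, 865 with no filter, 57 with B lineage levels subtracted, 1 after thinning, 10 with the 1% limit, 11 without Scrublet calls and 8 without mixed members. The 14 higher at D7 CTX became 293 with no filter, 102 with B lineage levels subtracted, 8 after thinning and 23 without Scrublet calls, and the 48 lower became 1215 with no filter and 21 after thinning. Higher genes were 43.1% of the D2 CTX calls and 36% of the D7 CTX calls by the total without the 20 most abundant genes. Single genes reversed were H2afx at D2 CTX after thinning (0.056), Pclaf (0.0034) and Tubb5 (0.087) at D2 CTX with the 1% limit, Pclaf at D2 CTX (0.35) and Ebf1 (0.82) and Mki67 (0.46) at D7 CTX without Scrublet calls, and Cd74 at D7 CTX without mixed members (0.027). Past 1 log2 unit in all 12 alternatives were 8 of the 12 highest (all but Gm10076, Slpi, Ddx58 and Thbs1) and 4 of the 12 lowest genes at D2 CTX (down: Elane, Prtn3, Mpo and Hist1h1c), and at D7 CTX 8 of the 12 highest, among them Stfa3, Stfa2, BC100530, Stfa2l1, Asprv1 and Ceacam10, and Thbs1, Ptgs2, Egr1 and Il1rn among the lowest. The denominators without B lineage cells and the members without mixed cells were chosen after seeing the data. The cause of each shift was not tested.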
